A study of Mus musculus with 2 samples.

Results

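The genes described here are the calmodulin genes Calm2 and Calm3, the 4 subunit genes of calcium/calmodulin-dependent protein kinase II (CaMKII; Camk2a, Camk2b, Camk2d and Camk2g), the kinases Camk4 and Camkk2, and the kinase-like gene Camkv. They were chosen by name, as 9 of the 43346 genes in the deposited tables, and all 9 were found there. Total RNA came from single forebrains of 2 newborn mice of strain B6NCrl at postnatal day 0, with no treatment, transgene or second tissue named in the labels. Pup 1 is replicate 1 and pup 3 is replicate 2, both in 1 group, and the labels give both the same donor identifier. Expected counts, the quantifier's estimates of reads per gene, totalled 40066386 in pup 1 and 40431595 in pup 3. Levels are in TPM, the deposited abundance corrected for transcript length and scaled to the same total in each library, given for each pup or as the mean ± SD with n = 2. With 2 animals in 1 group no contrast between conditions exists. The smallest p that exact sign flips of 2 values allow is 0.5 (two-sided), so no p is given and each difference is read against how far the pups lie apart. The 9 genes together held 0.371% of all TPM in pup 1 and 0.36% in pup 3.

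Calmodulin is a small calcium-binding protein that wraps around its target enzymes when calcium rises in the cell. CaMKII is one of those targets: its subunits assemble into large mixed rings, and once activated they phosphorylate each other and stay active after calcium falls, a property tied to synaptic strengthening. Camkk2 encodes an upstream kinase that phosphorylates CaMKIV, the product of Camk4, which acts largely in the nucleus on transcription factors such as CREB. Camkv encodes a protein that resembles these kinases and binds calmodulin but lacks kinase activity, and is found on vesicles and at synapses. In rodent forebrain the beta subunit of CaMKII is known to appear early and the alpha subunit to rise during the weeks after birth.

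The calmodulin genes were the highest of the 9. Calm2 (ENSMUSG00000036438.8, chr17:87433412-87446935, minus strand, build mm10) had 2737 TPM in pup 1 and 2762 TPM in pup 3. Calm3 (ENSMUSG00000019370.10, chr7:16915379-16924114, minus strand) had 338 and 341 TPM. In TPM both genes thus differed little between the pups, with SDs of 17.2 TPM for Calm2 and 1.88 TPM for Calm3. After TMM scaling of the counts, which centres the ratio over genes, both were higher in pup 3 (log2 0.30 and 0.34). Calm2 was 8.09 times Calm3 in TPM in each pup. Among 13030 protein-coding genes with 1 TPM or more in both pups, whose median was 17 TPM, Calm2 lay at percentile 99.8 and Calm3 at percentile 96.7.

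Both genes encode the same protein with different nucleotides. In the GENCODE M21 transcripts Calm2-201 and Calm3-201, the coding sequences of 447 nt were 82.6% identical and gave the same translation. Of the 78 differing bases, 74 were at the third position of a codon, and the longest identical run was 17 nt. The coding bases 1 to 90, counted from the start codon, show this, with the 15 bases that differ in capitals:

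Calm2: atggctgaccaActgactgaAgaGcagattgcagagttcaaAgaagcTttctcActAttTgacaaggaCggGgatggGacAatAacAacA

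Calm3: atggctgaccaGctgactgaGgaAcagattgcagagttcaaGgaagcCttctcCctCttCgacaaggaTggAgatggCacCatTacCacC

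The deposited uncertainty of the counts was small. The posterior SD of the count was 3.66 of 75095 counts for Calm2 in pup 1 and 4.11 of 85718 in pup 3, and 0 in both pups for Calm3. Of the 50-nt stretches of Calm2-201, 12.7% also occurred in a transcript of another gene, in the pseudogenes Gm14480, Gm15720 and Gm7308. Their levels were far below that of Calm2: Gm7308 had 6.94 and 7.17 TPM and Gm15720 had 3.69 and 3.91 TPM. Calm3 shared sequence with another gene, Gm5881, whose level is not given here. This held for 2.77% of the 50-nt stretches of Calm3-201 and 12.2% of those of a shorter transcript, Calm3-204.

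The transcripts of the calmodulin genes differed in makeup. Calm2-201, the protein-coding form, held 99.3% of Calm2 TPM in pup 1 and 99.2% in pup 3. Calm3-201, the protein-coding form of Calm3, held 72.3% and 74.9% of Calm3 TPM, and Calm3-204, an annotated noncoding transcript of 482 nt, held 26.4% and 23.7%. That second share rests on few reads, since TPM divides by length: Calm3-204 had 850 and 870 counts against 13342 and 15753 for Calm3-201. Counting only protein-coding transcripts of 1000 nt or more, Calm3 had 245 and 256 TPM, and Calm2 was 11.1 and 10.7 times Calm3.

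**Figure D1:**
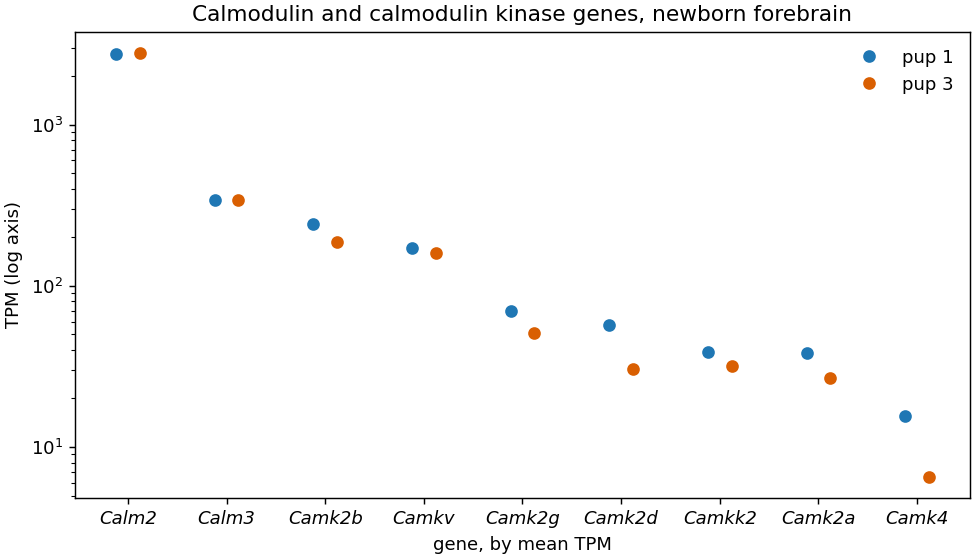
TPM of the 9 genes on a log axis, ordered by mean TPM, with 1 point for each pup. The points of Calm2, Calm3 and Camkv nearly coincide, whereas Camk4 has 15.7 TPM in pup 1 and 6.56 TPM in pup 3.

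Of the CaMKII subunit genes, Camk2b was the highest in both pups. Camk2b (ENSMUSG00000057897.10, chr11:5969644-6066362, minus strand) had 242 TPM in pup 1 and 188 TPM in pup 3. Camk2g (ENSMUSG00000021820.12, chr14:20734875-20794088, minus strand) had 69.8 and 51.2 TPM. Camk2d (ENSMUSG00000053819.12, chr3:126596302-126846326, plus strand) had 57.4 and 30.5 TPM. Camk2a (ENSMUSG00000024617.12, chr18:60925618-60988152, plus strand) was the lowest of the 4, with 38.5 and 26.7 TPM. All 4 genes had a lower TPM in pup 3, as did 80.4% of all genes, and after TMM scaling of the counts, which centres the ratio over genes, Camk2b and Camk2a differed little between the pups (log2 -0.04 each). Where a level does differ in bulk tissue, fewer cells of a type and less RNA per cell cannot be told apart.

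The makeup of the family is given in TPM, in which 80.4% of all genes were lower in pup 3. In proportion, the share of Camk2d changed nearly as much as the summed level, and those of Camk2a, Camk2b and Camk2g changed less. The summed TPM of the 4 genes was 408 in pup 1 and 296 in pup 3. Camk2b gave 59.4% and 63.4% of it, Camk2g 17.1% and 17.3%, Camk2d 14.1% and 10.3%, and Camk2a 9.43% and 9.02%. The shares of Camk2b and Camk2d moved most, in opposite directions. Camk2a, the subunit gene best known from adult synapses, gave the smallest share by TPM over all transcripts in both newborn forebrains. With protein-coding transcripts of 1000 nt or more, Camk2b gave 62% and 64.2% of the sum, Camk2g 18.2% and 17.8%, Camk2d 11.1% and 8.64% and Camk2a 8.66% and 9.32%, so that Camk2d was the smallest in pup 3.

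**Figure D2:**
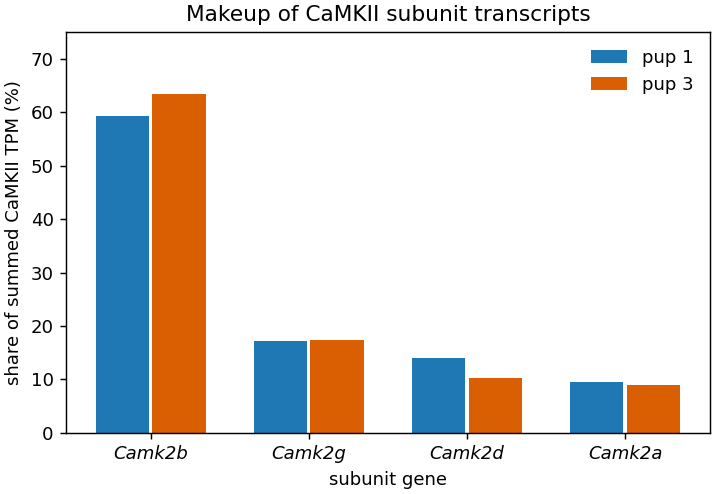
Share of each subunit gene in the summed TPM of Camk2a, Camk2b, Camk2d and Camk2g, in percent, with 1 bar for each pup. Camk2b takes 59.4% in pup 1 and 63.4% in pup 3, and Camk2a 9.43% and 9.02%.

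Ratios within a library were log2 of TPM + 0.1 of one gene over another, and were taken as larger than the spread between pups where the mean exceeded 3 SD with 1 sign. Camk2b was 3.47 and 3.66 times Camk2g in pups 1 and 3 (log2 1.83 ± 0.056, SD, n = 2), and 4.21 and 6.14 times Camk2d (2.35 ± 0.38). Camk2g was 1.81 and 1.91 times Camk2a (log2 0.90 ± 0.055). These ratios exceeded the spread. Camk2g over Camk2d (1.21 and 1.68 times) and Camk2d over Camk2a (1.49 and 1.14 times) did not, so the place of Camk2d between its neighbours was not settled by 2 pups.

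CaMKII genes are spliced differently in the linker between the regulatory segment and the hub by which subunits assemble. A short exon in this linker is known, in the alpha, delta and gamma genes, to carry a nuclear localization signal. In GENCODE M21 an exon of 33 nt lies at this place in Camk2a, in Camk2g (exon 14 of Camk2g-201, chr14:20747819-20747851) and in Camk2d (exon 2 of Camk2d-218, chr3:126802937-126802969). The exons of Camk2g and Camk2d shared 26 of 33 bases, and each shared 28 of 33 with that of Camk2a. The 7 bases that differ between the Camk2g and Camk2d exons are in capitals:

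Camk2g 33-nt exon: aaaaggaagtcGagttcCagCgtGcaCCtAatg

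Camk2d 33-nt exon: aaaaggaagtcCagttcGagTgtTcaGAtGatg

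The share of an exon is the TPM of the transcripts that hold it over the TPM of all transcripts of the gene that span its place. It differed widely between genes. The 33-nt exon was in 69.1% of Camk2a TPM in pup 1 and 69.2% in pup 3, and in 41% and 31.1% of Camk2g TPM. For Camk2d it was in 22.7% and 15.4%, but nearly all of that came from Camk2d-218, annotated as a retained intron, with 83.7 and 37.6 counts on a deposited length of 389 nt. Among protein-coding Camk2d transcripts of 1000 nt or more the share was 2.07% in pup 1 and 0% in pup 3. By these estimates, transcripts with the exon took most of Camk2a TPM and little of long coding Camk2d TPM, while Camk2g lay between them. The deposited shares are estimated by a model from overlapping transcripts, and reads over the exon itself were not counted. In GENCODE M21, only 0.219% of the 50-nt stretches of Camk2a-201 occurred in no other transcript of the gene. For Camk2a-203, which lacks the exon and has a longer last exon, this was 35.9%. The shares themselves were estimated on GENCODE M4. Whether the Camk2a share rests on reads outside the exon was not tested.

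Among the 9 genes, the widest gap between pups in a transcript's share was in Camk2g. Camk2g-201, which holds both the 33-nt exon and a 69-nt exon next to it (chr14:20745792-20745860), took 41% of Camk2g TPM in pup 1 and 31.1% in pup 3. Camk2g-202, with the 69-nt exon alone, took 26.1% and 16.6%. Camk2g-203, with neither, took 32.9% and 52.4%. The leading transcript was therefore Camk2g-201 in pup 1 and Camk2g-203 in pup 3, and the share of the 69-nt exon was 67.1% and 47.6%. Its sequence is shown because this exon carries that difference:

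Camk2g 69-nt exon: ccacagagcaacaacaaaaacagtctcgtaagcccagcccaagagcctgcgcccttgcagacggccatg

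A transcript with a mean share of 10% or more that differed by 10 percentage points or more was found in 1 of the 7 member genes with several transcripts, Camk2g. Of all such genes with 1 TPM or more, 26.7% met this rule, and of those with 1000 counts or more, as all 7 members have, 12%. Another leading transcript in pup 3 was found in 2 of the 7, Camk2g and Camk2d, against 9.46% of all such genes and 5.61% of those with 1000 counts or more. Just short of the gap rule were Camk2g-201 (-9.96 points, pup 3 minus pup 1), Camk2b-209 (9.84 points) and Camk2a-201 (9.63 points). In GENCODE M21, only 0.0569% of the 50-nt stretches of Camk2g-203 and 0.93% of those of Camk2g-201 occurred in no other transcript of the gene. The shares were estimated on GENCODE M4, with 3 Camk2g transcripts. These percents thus do not show how far the quantified forms could be told apart. With 2 pups neither count can be read as a feature of these genes.

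**Figure D3:**
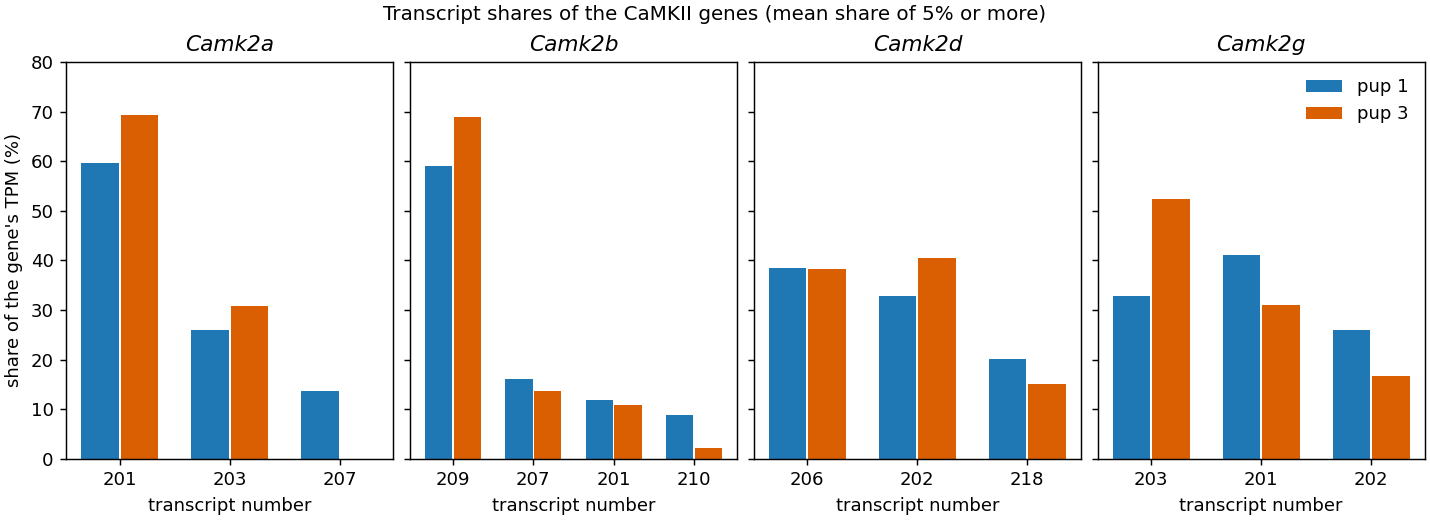
Percent of a gene's TPM assigned to each of its transcripts, for transcripts of the CaMKII genes with a mean share of 5% or more, with 1 bar for each pup. Camk2g-203 has 32.9% in pup 1 and 52.4% in pup 3, whereas Camk2d-206 has 38.5% and 38.3%.

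In Camk2b, the most abundant subunit gene, the shares of its variable exons were close in the pups. Camk2b-209 held 59% and 68.9% of its TPM, Camk2b-207 16.1% and 13.6%, and Camk2b-201 11.9% and 10.8%. They differ in their ends and in variable coding exons: Camk2b-209 holds a 75-nt exon (chr11:5987057-5987131) that Camk2b-207 and Camk2b-201 lack, and Camk2b-201 also lacks a 45-nt exon (chr11:5981070-5981114). The 75-nt exon was in 69.2% and 72.4% of TPM, and the 45-nt exon in 85.7% and 86.4%. A 129-nt exon (chr11:5976765-5976893) was in 2.34% and 2.69%. The 45-nt exon has a counterpart of 42 nt in Camk2d (exon 15 of Camk2d-206, chr3:126808208-126808249), and the start of both reads alike:

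Camk2b 45-nt exon: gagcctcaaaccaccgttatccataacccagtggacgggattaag

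Camk2d 42-nt exon: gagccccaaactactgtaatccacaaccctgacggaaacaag

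Among protein-coding Camk2d transcripts of 1000 nt or more, this 42-nt exon was in 96.4% and 98.5% of TPM. Camk2d-206 and Camk2d-202, the leading transcripts of Camk2d, both hold it and differ, apart from their ends, in the exon before it. This 60-nt exon (chr3:126805857-126805916) is in Camk2d-206 alone of the pair. Camk2d-206 had 38.5% and 38.3% of Camk2d TPM, and Camk2d-202 32.8% and 40.5%. In Camk2a, Camk2a-201 with the 33-nt exon (its exon 14, chr18:60969011-60969043) held 59.6% and 69.3% of TPM and Camk2a-203, without it and with a longer last exon, 26.1% and 30.8%. The rest in pup 1 was mostly Camk2a-207, a fragment of 530 nt with 13.7% of TPM from 56.5 counts, listed at 0 in pup 3.

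Camkv, the kinase-like gene (ENSMUSG00000032936.9, chr9:107935674-107949691, plus strand), had 171 TPM in pup 1 and 161 TPM in pup 3, near the level of Camk2b and above those of the other kinase genes among the 9. It was 4.43 and 6 times Camk2a. Camkv-201 held 73.9% and 69.2% of its TPM and Camkv-202, annotated as a retained intron, 20.2% and 23%. Without Camkv-202 and short transcripts, Camkv had 135 and 123 TPM. By these model estimates, the annotated retained-intron transcript held a similar share of Camkv TPM in both libraries. Reads over the intron itself were not counted.

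Camkk2, the upstream kinase (ENSMUSG00000029471.9, chr5:122731170-122779409, minus strand), had 38.7 and 31.7 TPM from 1 quantified transcript. Camk4, the nuclear kinase it acts on (ENSMUSG00000038128.6, chr18:32934931-33191228, plus strand), had 15.7 TPM in pup 1 and 6.56 TPM in pup 3, the lowest of the 9 in both. Camkk2 was 2.46 and 4.78 times Camk4, a ratio whose mean (log2 of Camk4 over Camkk2 -1.78 ± 0.68) did not exceed 3 SD. The level of Camk4 also rests on its length: the deposited tables give its transcript 12331 nt, whereas GENCODE M21 gives Camk4-201 2717 nt. In CPM, counts scaled to library size without regard to length, Camk4 had 119 and 55.9, against 114 and 105 for Camkk2 and 76.7 and 68.4 for Camk2a.

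By mean TPM the order was Calm2, Calm3, Camk2b, Camkv, Camk2g, Camk2d, Camkk2, Camk2a and Camk4. All 9 genes had 1 TPM or more in both pups, and 8 had 10 TPM or more in both. Of the 8 pairs of neighbours in this order, 3 differed by more than the spread between pups: Calm2 over Calm3, Camkv over Camk2g (2.44 and 3.13 times) and Camk2a over Camk4 (2.45 and 4.03 times). The other 5 did not, from Calm3 over Camk2b (1.4 and 1.82 times) to Camkk2 over Camk2a (1.005 and 1.19 times). Camk2d was above Camkk2 in pup 1 (1.48 times) and below it in pup 3 (0.961 times). Camk2a over Camk4 (log2 1.65) no longer exceeded 3 SD with protein-coding transcripts of 1000 nt or more (1.54) and turned on counts not divided by length (-0.17), so the last place of Camk4 depends on the measure of level.

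Between the pups, Camk4 differed most. A gene was counted as differing where its mean TPM was 1 or more, the ratio of TPM + 0.1 was 2-fold or more and the deposited credibility intervals did not overlap. Camk4 was 2.37 times higher in pup 1, with an interval of 14.9 to 15.8 TPM in pup 1 and 6.17 to 6.7 TPM in pup 3, and was the 1 member of 9 that met the rule. Across 14985 genes 3.98% met it, and 3.85% met it with the lower value in pup 3. Camk2d was 1.88 times higher in pup 1, just short of the rule, Camk2a 1.44 times, Camk2g 1.36 times, Camk2b 1.29 times and Camkk2 1.22 times. Camkv was 1.06 times higher in pup 1, and the values of Calm2 and Calm3 in pup 3 were 1.01 times those in pup 1.

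The size of these ratios, and for Camkk2 and Camkv also the direction, depended on the scaling of the libraries. In TPM, 7 of the 9 genes were lower in pup 3, where 80.4% of all genes were lower, with a median log2 ratio of -0.27 over all genes and -0.37 over the 9. The other 2, Calm2 and Calm3, were higher, as were 19.5% of all genes. Deposited intervals lay apart for the same 7 members, against 53.6% of all genes, and against 48% with the lower value in pup 3. After TMM scaling of the counts, which brings the median of all genes to 0.008, 5 members were lower and 4 higher in pup 3, against 48.9% of all genes lower. Relative to other genes, then, Camk4 (log2 -0.97) and Camk2d (-0.52) were lower in pup 3, Camk2a, Camk2b and Camkk2 lay near the middle (-0.04, -0.04 and 0.0032), Camk2g was at -0.17, and Camkv (0.20), Calm2 (0.30) and Calm3 (0.34) were higher. Camkk2 and Camkv changed sign with the scaling.

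**Figure D4:**
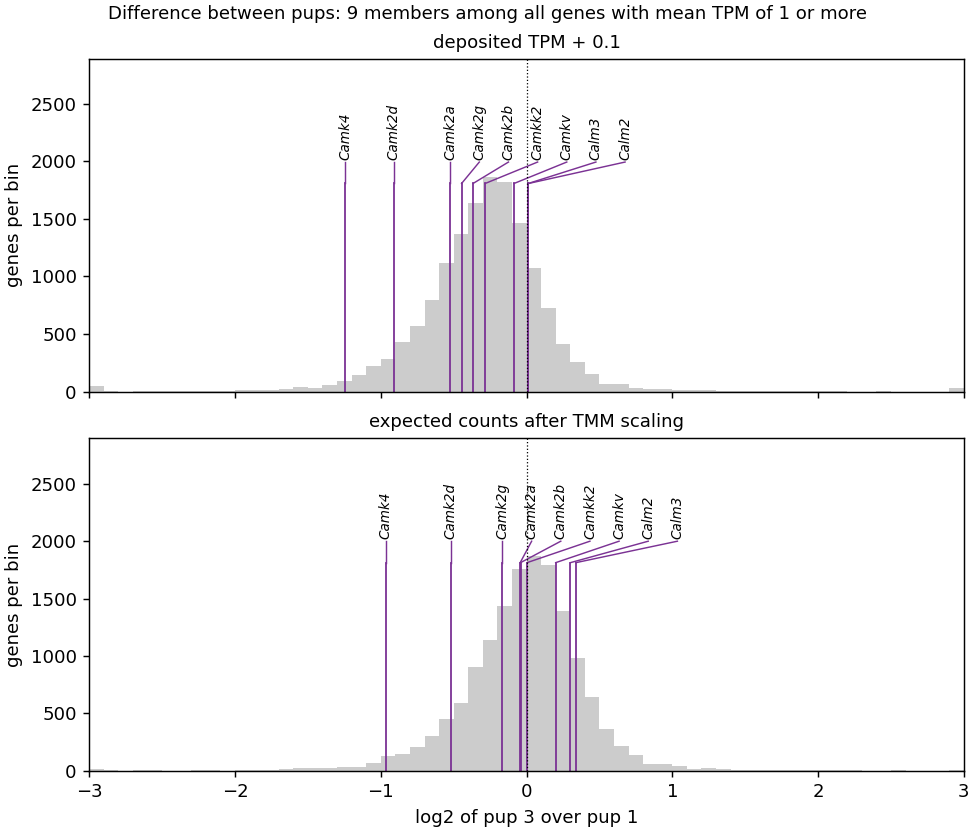
Histograms of log2 of pup 3 over pup 1 for the 14985 genes whose mean reached 1 TPM (grey, genes per bin, the end bins hold all values beyond them), with the 9 genes as lines, on TPM + 0.1 above and on TMM-scaled counts below. Camk4 is the lowest member in both panels (-1.24 and -0.97), and the centre of all genes lies at -0.27 above and 0.008 below.

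Other values moved in the same direction as Camk4. All 3 diencephalic markers were lower in pup 3: their summed level was 401 TPM in pup 1 and 163 TPM in pup 3, and Tcf7l2, a transcription factor gene of the thalamus, had 243 and 93.1 TPM. Long transcripts were lower too, as 75 genes with a mean length of 10000 nt or more had a median 1.63 times higher in pup 1, against 1.2 times over all genes, and 18.7% of them met the rule with the lower value in pup 3. The part of dissection and of transcript length in the Camk4 value was not tested. Of the 5 forebrain neuron markers, 4 were lower in pup 3, such as Snap25 (241 and 142 TPM) and Gad1 (103 and 72.6 TPM), and Neurod6 was higher (206 and 329 TPM). That is near the 80.4% of all genes with a lower TPM in pup 3. After TMM scaling, 3 of the neuron markers were lower and 2 higher, and all 3 diencephalic markers were lower, against 48.9% of all genes. The lower values were not limited to diencephalic markers. All 4 markers of the oligodendrocyte lineage and the 2 of choroid plexus were lower in pup 3, in TPM and after TMM scaling. Of the 3 microglia markers, 2 were lower in TPM and 1 after TMM scaling, and the 2 endothelial markers were higher in both. The 4 midbrain and hindbrain markers summed to 0.16 and 0.05 TPM, with Hoxa2 and Hoxb3 at 0 in both pups. The neuronal markers summed to 2636 and 2408 TPM. The 4 markers of radial glia and astrocytes summed to 2661 and 2733 TPM, with Fabp7 higher in pup 3 (2258 and 2433 TPM) and the other 3 lower, such as Aldoc (191 and 152 TPM). After TMM scaling too, 3 of these were lower and 1 higher. The 2 globin genes summed to 1584 and 2266 TPM.

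Other genes of calcium and calmodulin signalling came from 9 lists with 45 genes, of which 44 had 1 TPM or more in both pups. Among them 1 gene met the rule for a difference between the pups, against 3.98% of all genes: Rcan2, an inhibitor of calcineurin, with 40.2 and 14 TPM. Of the calmodulin relatives, Calml4 had 10.9 and 10.2 TPM, and Calml3 was near 0 (0.06 and 0 TPM). In TPM, 44 of the 45 were lower in pup 3, as were 80.4% of all genes, and after TMM scaling 30 were lower and 15 higher, against 48.9% of all genes lower.

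Genes for proteins that bind calmodulin and limit its free amount formed the highest list, with a median of 317 TPM. Marcksl1 had 1974 and 1911 TPM and Gap43, a growth cone protein, 1694 and 1337 TPM, while Nrgn (neurogranin), known from mature dendritic spines, was the lowest of the 5 at 153 and 127 TPM. Of the CaMKII inhibitor genes, Camk2n2 had 49.5 and 37.6 TPM and Camk2n1 18.6 and 14.2 TPM. Camk2n2 was 2.66 and 2.63 times Camk2n1 in TPM, and their sum was 0.167 and 0.175 times that of the CaMKII genes. The inhibitor transcripts therefore kept nearly the same proportion to CaMKII transcripts in both pups.

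The other calmodulin-dependent kinase genes had a median of 26.4 TPM over 8 genes. Pnck, which encodes a kinase of the CaMKI group, led at 126 and 113 TPM, followed by Camk1 at 102 and 88.5 TPM, and Mylk, the smooth muscle myosin kinase gene, was lowest at 1.9 and 1.04 TPM. In TPM, Pnck and Camk1 were above Camk4, the CaMKIV gene, in both pups, whereas Camk1d, another CaMKI gene, was below it at 9.1 and 6.1 TPM. These places rest on the deposited transcript length of Camk4. The phosphatase genes Ppm1e and Ppm1f, whose products remove activating phosphates from CaM kinases, had 16.4 and 11.9 TPM and 10.5 and 6.61 TPM.

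Calcineurin is the calmodulin-activated phosphatase, and its list of 7 genes had a median of 43.5 TPM. Ppp3r1, the regulatory subunit gene, had 194 and 155 TPM, Ppp3ca, a catalytic subunit gene, 195 and 134 TPM, and Ppp3cc 18.6 and 14.5 TPM. Other calmodulin-regulated enzymes were lower, with a median of 7.14 TPM over 6 genes: the phosphodiesterase genes Pde1b (48.5 and 36.6 TPM) and Pde1a (39.6 and 20.1 TPM) led, and the adenylyl cyclase gene Adcy8 had 3.42 and 1.98 TPM. Of the CaMK substrates and anchors, Syn1 (synapsin I) had 82.7 and 71.1 TPM, the AMPA receptor subunit gene Gria1 80.1 and 40.6 TPM, and Creb1, the gene of the transcription factor CREB, 12.5 and 9.46 TPM. Other calcium sensors and buffers had a median of 81.2 TPM over 9 genes, with Calb2 at 247 and 147 TPM, Ncald at 185 and 153 TPM and Cabp1 at 10.9 and 16.1 TPM. Cabp1 was the 1 listed gene with a higher TPM in pup 3.

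**Figure D5:**
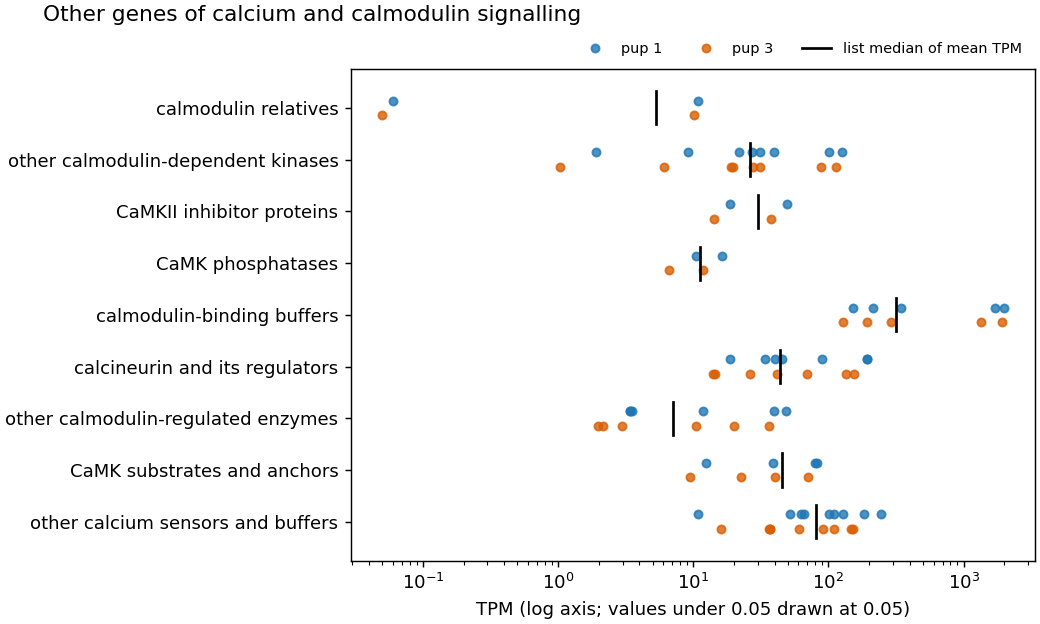
TPM of 45 genes in 9 lists of calcium and calmodulin signalling on a log axis, with 1 point for each pup and a black line at the list's median of mean TPM. The calmodulin-binding buffers have the highest median, 317 TPM, and the 2 calmodulin relatives the lowest, 5.28 TPM.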

How the data were processed

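Total RNA longer than 200 nt was measured in 2 forebrains, from 10 ng per library per the labels, with 40066386 and 40431595 expected counts, which limit the precision of low transcripts. Per the deposited notes, the authors quantified reads on assembly mm10 with GENCODE M4; no source used here gives the aligner, the quantifier, their versions or the use of strand, so overlapping and antisense reads could not be separated. The authors' gene and transcript tables hold expected counts (shared reads divided, not whole), TPM and posterior mean TPM, per the file headers. The bounds of a credibility interval around the posterior mean TPM were deposited as signal values in TPM units, at a level that no source used here states, and they need not hold the TPM. The deposited isoform percent is a transcript's share of its gene's TPM.

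Symbols, positions and transcript structures were those of GENCODE M21, whose build GRCm38 is mm10, matched by identifier without version (42462 of 43346 genes). Deposited transcript lengths differ from M21 for some members, so exon shares assume the M21 exons. Sequences came from the GENCODE M21 transcripts. None is shown for Camk2a or Camk4.

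Scaling used TMM (edgeR 4.0.16) and, as an alternative, DESeq2 1.42.0 size factors (R 4.3.3) on rounded expected counts, for genes with 10 or more in both pups. Log ratios of scaled counts used a pseudocount of 1, others TPM + 0.1, which understates changes of low genes. Tables were handled in Python 3.11.15 (pandas 2.3.3, numpy 2.4.6) and drawn with matplotlib 3.10.9. The rules were tested on simulated data. The members, lists and pairs were chosen with earlier results of these data known. Named genes were the 9 members, the pair genes, the 2 highest and the lowest of each list, and transcripts with a mean share of 10% or more. Camk2a-207, Tcf7l2, Rcan2, Neurod6, Snap25, Gad1, Fabp7, Aldoc, Camk1d, Hoxa2 and Hoxb3 were named after their values were seen. So were the pseudogenes and Gm5881. No gene was named for a pattern like a member's, since 2 samples of 1 group hold none. Alternatives were other estimates, pseudocounts, scalings, thresholds and each pup alone. The restriction to protein-coding transcripts of 1000 nt or more, shares of counts, and the values for long genes and exons were added after the data were seen. Some genes of the lists are not reported here, and the lists' counts, medians and sums leave them out.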

Additional observations from a re-analysis of the deposited data

How the results depend on the processing

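No paired analysis was possible because both samples belong to 1 group and no contrast was made. The median level of the 9 genes was 60.5 TPM, 51.2 to 69.8 TPM with either pup alone, and moved by less than the spread between pups with posterior mean TPM, without mitochondrial genes and with long coding transcripts. The number of fixed ratios beyond the spread was 7 of 11 and was 7 or 8 under the alternatives run, and 5 of the 7 genes with several transcripts led with 1 transcript in pup 1 and pup 3 alike under each alternative. With either pup alone neither count can be made. The number of members that differed between pups was 1 in the main setting and 2 with a threshold of 1.5-fold (Camk4 and Camk2d). It was 0 with TMM scaling and 0 with DESeq2 size factors, under which the log2 ratio of Camk4 was -0.97 and -0.96. For these 2 scalings the rule took the ratio from scaled counts, but the intervals were still those of the deposited TPM. The share of all genes that met the rule was 3.98%, 1.52% with TMM, 1.5% with DESeq2 size factors, 1.8% with a pseudocount of 1, 2.74% with posterior mean TPM, 2.3% without a filter and 16.9% at 1.5-fold. The sign of the log2 ratio of pup 3 over pup 1 turned with TMM and DESeq2 size factors for Camkv (0.20 and 0.21) and Camkk2 (0.0032 and 0.011). With counts not divided by length, log2 ratios turned for Camk2n1 over Camk2n2 (0.46), Calm3 over Camk2b (-0.25), Camk2d over Camkk2 (-0.29) and Camk2a over Camk4 (-0.17), since longer transcripts give more counts. Camk2d over Camkk2 also turned with long coding transcripts (-0.11) and with either pup alone spanned -0.057 (without pup 1) to 0.57 (without pup 3).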
